A study of Drosophila melanogaster with 6 samples.

Results

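The follicle cells of the *Drosophila* ovary wrap each germline cyst, and their identity is set by a small group of transcription factors. A total of 8 such genes were followed here (*tj*, *zfh1*, *cas*, *eya*, *so*, *ct*, *mirr* and *slbo*), taken by symbol from the 17807 genes of the deposited table. Ovarian somatic cells (OSCs) are a line derived from these follicle cells, and the cells of all 6 libraries were a knockout for *l(3)mbt*, a chromatin regulator that keeps germline genes silent in somatic cells (Δ*l(3)mbt* OSCs). Cells were transfected with siRNA against *ovo* (3 libraries) or, as the control, against *renilla* (3 libraries), a luciferase gene absent from flies, and polyadenylated RNA was collected after 48 h. The knockdown asks which genes of the Δ*l(3)mbt* cells depend on *ovo*, whose zinc finger protein acts in female germ cells. Wild-type OSCs are not analysed here, so every level below is that of cells without *l(3)mbt*. The study describes the 3 replicates of a group as distinct samples. Neither the labels nor the study says whether these were separate cultures or whether the knockout line is 1 clone, so that p values measure the spread between these libraries.

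The 8 genes act at different points of follicle cell life. *tj* encodes a large Maf protein of the bZIP class that is needed in the somatic cells of the gonad and that drives *piwi* there. *zfh1* encodes a zinc finger and homeodomain protein of somatic gonadal precursors. Castor, the product of *cas*, is a zinc finger protein found with Eya in the earliest cells of the follicle lineage. Eya is a transcriptional coactivator that holds the main body follicle fate against the polar cell fate, and in the eye it acts in a complex with the homeodomain protein Sine oculis, the product of *so*. The homeodomain protein Cut, encoded by *ct*, is kept on in the dividing follicle cells until Notch signalling shuts it off. Mirror, encoded by *mirr*, is a homeodomain protein of the Iroquois family that patterns the dorsal and anterior follicle cells, and Slbo is the C/EBP factor of the migrating border cells.

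With *ovo* siRNA the levels of *mirr*, *ct*, *zfh1* and *tj* were lower and that of *so* was higher. In a limma fit over 7893 genes (10 normalized counts or more in 3 or more libraries), 7 of the 8 genes were tested, of which 4 fell, 1 rose and 2 (*cas* and *eya*) did not pass a Benjamini-Hochberg adjusted p of 0.05. Among all genes tested 14.1% fell and 11.8% rose. *mirr* fell 2.43-fold, *ct* 2.40-fold, *zfh1* 1.87-fold and *tj* 1.43-fold, while *so* rose 1.59-fold. No *ovo* siRNA library overlapped a *renilla* siRNA library for 6 of the 7 genes, 4 lower and 2 higher with *ovo* siRNA. Of all genes tested, 21.7% had every *ovo* siRNA library below every *renilla* siRNA library and 23.6% had it above.

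**Figure D1:**
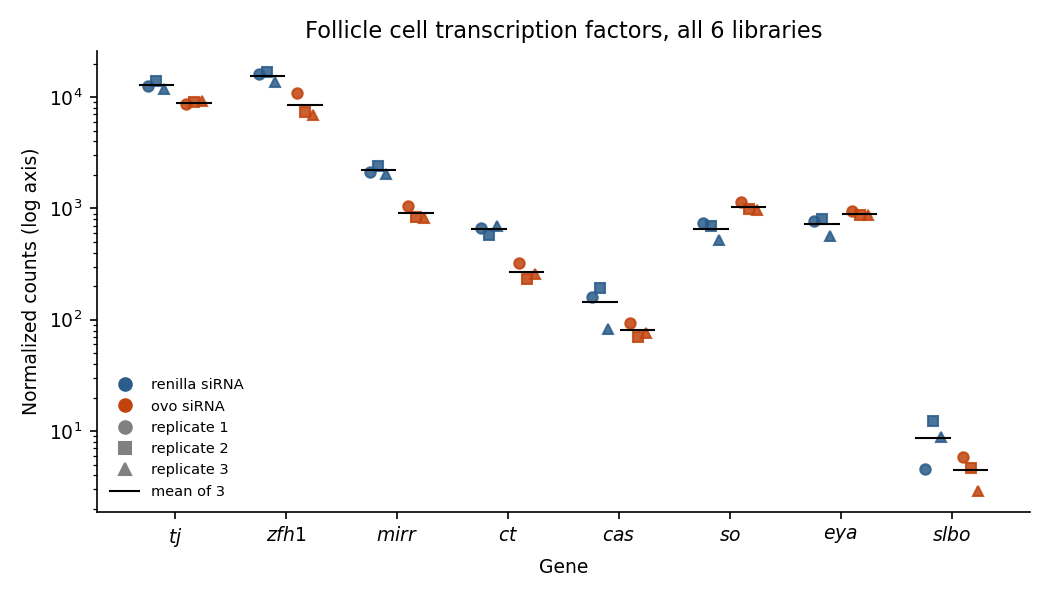
Normalized counts (log axis) of the 8 transcription factor genes in each of the 3 *renilla* siRNA and 3 *ovo* siRNA libraries, with the replicate shown by the marker and the mean of 3 by a line. The *ovo* siRNA points lie below the *renilla* siRNA points for *tj*, *zfh1*, *mirr* and *ct* and above them for *so* and *eya*, while the 2 groups overlap for *cas* and *slbo*.

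The siRNA duplex was checked against the genome first, since the knockdown defines the groups. Both strands are shown 5′ to 3′, with the 19 bases that match *ovo* in capitals and the overhangs in lower case.
*ovo* siRNA, sense strand: GGAGCUGCGUGGACGACGAgg
*ovo* siRNA, antisense strand: UCGUCGUCCACGCAGCUCCuu
The sense strand had 1 match in the Release 6 (dm6) genome, at chrX:5066361-5066379 on the plus strand, inside a coding exon that all 5 annotated *ovo* transcripts carry. *ovo* itself was at 961, 885 and 875 normalized counts in *ovo* siRNA replicates 1, 2 and 3 and at 1300, 1590 and 1642 in *renilla* siRNA replicates 1, 2 and 3. It fell 1.66-fold (log2 fold change −0.73 ± 0.13 SE, limma adjusted p = 0.00862), and the groups did not overlap. With the trend in transcript length and GC content removed, as set out below, its difference was −0.25 ± 0.19 SE (limma adjusted p = 0.343), and the groups overlapped. *l(3)mbt* transcripts were still counted in every library, at 1668 to 3399 normalized counts, and did not pass (0.34 ± 0.21 SE, limma adjusted p = 0.267), and where the knockout lesion lies was not analysed here. Fewer cells of a type and less RNA per cell cannot be told apart in these bulk libraries.

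The libraries differed in depth and in the length of transcript they favoured, and both bear on the results below. Counted reads ran from 11337660 to 21481506 in 5 libraries and were 2759594 in *renilla* siRNA replicate 3, where 3 reads, the number that an observed 0 still allows, equal 13.1 normalized counts. The second principal component (30.8% of the variance) set this library at −36.5 and the other 2 *renilla* siRNA libraries at 24.0 and 25.2. Relative to the mean of the 6 libraries, log2 levels changed per doubling of transcript length by 0.16 and 0.17 in *renilla* siRNA replicates 1 and 2 and by −0.19 in replicate 3, against 0.07, −0.07 and −0.13 in the *ovo* siRNA libraries. The members are therefore also given from a fit with a smooth trend in transcript length, 3′ UTR length and GC content removed from each library, and from a fit without *renilla* siRNA replicate 3. The first of these called 13.0% of genes lower and 16.8% higher, the second 24.4% lower and 26.2% higher. Rises were 45.5% of all calls in the fit as first given, 56.3% with the trend removed and 58.0% with TMM scaling, which moved the median log2 fold change of all genes from 0.04 to 0.14.

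The promoters of the members were read for the motifs that the study names for Ovo, CCGTTA and the looser CNGTTA, in which N is any base, on both strands. Of all 13968 protein-coding promoters, taken as 250 bases before to 50 bases after the annotated start, 8.86% held CCGTTA (95% Wilson interval 8.40 to 9.35%) and 38.8% held CNGTTA (38.0 to 39.6%). Among the 7566 promoters of tested genes the shares were higher, at 10.8% for CCGTTA and 41.9% for CNGTTA. Every CCGTTA match is also a CNGTTA match. Of the 8 members, 2 (*zfh1* and *slbo*) held CCGTTA and 5 (these with *tj*, *cas* and *mirr*) held CNGTTA. *ct*, *eya* and *so* held neither in this window, which lies at the outermost annotated start of each gene only. The study scored motifs in wider windows around the start and also used Ovo ChIP-seq peaks, so these counts are not comparable with its own. Shown are the 250 bases upstream of 3 genes that fell, as examples of a pair of matches, of overlapping matches and of no upstream match, with every CNGTTA match in capitals. *zfh1* (chr3R:30765676-30765925, plus strand) has a pair of CCGTTA matches 8 bases apart, starting at −208 and −200. *tj* (chr2L:19464017-19464266, plus strand) has a match on each strand that share bases, at −49 and −46. *mirr* (chr3L:12693389-12693638, plus strand) has none upstream, and its only match starts at base 18 of the transcribed side. No annotated exon overlapped these windows, and a match is a stretch of letters, not a measured binding site.
*zfh1*: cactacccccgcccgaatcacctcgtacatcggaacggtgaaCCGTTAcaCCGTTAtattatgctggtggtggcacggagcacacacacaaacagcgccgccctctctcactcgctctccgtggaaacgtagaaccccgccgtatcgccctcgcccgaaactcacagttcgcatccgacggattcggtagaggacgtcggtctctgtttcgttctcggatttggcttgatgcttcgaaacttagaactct
*tj*: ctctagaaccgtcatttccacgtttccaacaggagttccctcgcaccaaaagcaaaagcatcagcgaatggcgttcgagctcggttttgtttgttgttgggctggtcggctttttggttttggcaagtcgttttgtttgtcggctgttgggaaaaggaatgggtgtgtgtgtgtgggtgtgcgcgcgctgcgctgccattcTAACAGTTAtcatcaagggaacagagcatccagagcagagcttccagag
*mirr*: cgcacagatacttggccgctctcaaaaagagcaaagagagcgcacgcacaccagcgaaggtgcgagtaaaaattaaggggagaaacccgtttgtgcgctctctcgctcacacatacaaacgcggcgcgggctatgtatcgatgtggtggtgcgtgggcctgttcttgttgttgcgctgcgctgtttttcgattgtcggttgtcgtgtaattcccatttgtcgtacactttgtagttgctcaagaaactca

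*mirr* was the 1 gene among those that fell whose call held in all 20 alternative settings. It was at 2115, 2413 and 2058 normalized counts in *renilla* siRNA replicates 1, 2 and 3 and at 1054, 841 and 824 in *ovo* siRNA replicates 1, 2 and 3. All 3 *ovo* siRNA libraries were thus well below the lowest *renilla* siRNA library. The mean went from 2196 ± 191 (SD, n = 3) to 906 ± 128 (SD, n = 3), a log2 fold change of −1.28 ± 0.14 SE (limma adjusted p = 0.00208). It was −1.27 ± 0.11 SE with the trend removed (limma adjusted p = 0.00027) and −1.33 without *renilla* siRNA replicate 3 (limma adjusted p = 4.27e-05). Over all settings its log2 fold change ran from −1.40 to −1.19.

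*ct* fell by nearly the same amount, and its value was the one that moved most with the correction for transcript properties. Its levels were 665, 578 and 701 normalized counts in *renilla* siRNA replicates 1, 2 and 3 and 326, 232 and 255 in *ovo* siRNA replicates 1, 2 and 3. The mean went from 648 ± 63.3 (SD, n = 3) to 271 ± 48.8 (SD, n = 3), again with no overlap, and the log2 fold change was −1.26 ± 0.16 SE (limma adjusted p = 0.0031). With the transcript trend removed it was −0.31 ± 0.15 SE (limma adjusted p = 0.161), and the groups overlapped. The *ct* transcript, at 11755 bases and 44.9% GC, was the longest of the 8, and 80 of 7868 genes tested had a longer one. *ct* was not called in any of the 3 fits that removed the trend (adjusted p = 0.161, 0.0556 with the replicate block and 0.177 without *renilla* siRNA replicate 3), and it was called in the other 17 alternatives.

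*zfh1* was counted at 16022, 16909 and 13776 normalized counts in *renilla* siRNA replicates 1, 2 and 3. The *ovo* siRNA libraries held 10970, 7423 and 6972. Replicate 1 stood above the other 2 *ovo* siRNA libraries, and the groups did not overlap. The mean went from 15569 ± 1615 (SD, n = 3) to 8455 ± 2190 (SD, n = 3), a log2 fold change of −0.91 ± 0.20 SE (limma adjusted p = 0.0168). Its transcript is also long, at 6522 bases, and with the trend removed the fall was smaller but passed, at −0.59 ± 0.12 SE (limma adjusted p = 0.00893). It was lost under quantile normalization (adjusted p = 0.0689) and in 4 of the fits without 1 library, those without *ovo* siRNA replicate 2 (0.0906) or 3 (0.0783) and those without *renilla* siRNA replicate 1 (0.0537) or 2 (0.0668). An antisense RNA gene (asRNA:CR45189) covers 4.56% of the *zfh1* exons on the other strand, and the reads were counted by strand.

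*tj* showed the smallest fall that passed. The *renilla* siRNA libraries held 12598, 13870 and 11823 normalized counts and the *ovo* siRNA libraries 8596, 8979 and 9247 for replicates 1, 2 and 3. Both groups were tight and lay apart, with means of 12763 ± 1034 (SD, n = 3) and 8941 ± 327 (SD, n = 3). The log2 fold change was −0.51 ± 0.13 SE (limma adjusted p = 0.0286), and −0.41 ± 0.10 SE with the trend removed (limma adjusted p = 0.018). The call did not hold in 8 of the 20 alternatives, with no filter on low counts (adjusted p = 0.0714), with TMM scaling (0.0573), under quantile normalization (0.12), and without *ovo* siRNA replicate 1 (0.0739), 2 (0.132) or 3 (0.101) or *renilla* siRNA replicate 1 (0.0779) or 2 (0.107).

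*so* went the other way. It was at 739, 699 and 521 normalized counts in *renilla* siRNA replicates 1, 2 and 3 and at 1137, 996 and 961 in *ovo* siRNA replicates 1, 2 and 3. The lowest *ovo* siRNA library was above the highest *renilla* siRNA library. The mean went from 653 ± 116 (SD, n = 3) to 1031 ± 93.3 (SD, n = 3), a log2 fold change of 0.67 ± 0.16 SE (limma adjusted p = 0.0224). The rise was 0.44 ± 0.11 SE with the trend removed (limma adjusted p = 0.0185), and it was not called without *ovo* siRNA replicate 1 (0.0751), 2 (0.0895) or 3 (0.0679) or without *renilla* siRNA replicate 2 (0.0551). It was 0.52 without *renilla* siRNA replicate 3 (limma adjusted p = 0.00304), the control library in which *so* was lowest.

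The level of *eya*, whose product is the partner of Sine oculis in the eye, was 777, 806 and 569 normalized counts in *renilla* siRNA replicates 1, 2 and 3 and 948, 866 and 874 in *ovo* siRNA replicates 1, 2 and 3. Although the groups did not overlap, the difference of 0.34 ± 0.16 SE on the log2 scale did not pass (limma adjusted p = 0.158), nor did it in any of the 20 alternatives, where the difference ran from 0.05 to 0.43. It was 0.09 ± 0.08 SE with the trend removed (limma adjusted p = 0.417), and the groups then overlapped.

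The call for *cas* depended on 1 library and on the model. It was at 160 and 191 normalized counts in *renilla* siRNA replicates 1 and 2 and at 83.2 in replicate 3, where this value rests on 19 reads. The *ovo* siRNA libraries held 93.6, 70.6 and 76.1 in replicates 1, 2 and 3, from 105 to 193 reads, so that *renilla* siRNA replicate 3 fell within their range. The difference over all 6 libraries was −0.77 ± 0.31 SE on the log2 scale and did not pass (limma adjusted p = 0.107). Without *renilla* siRNA replicate 3 it was −1.13 (limma adjusted p = 0.00058), and with the transcript trend removed from all 6 libraries −1.01 ± 0.23 SE (limma adjusted p = 0.0123), with no overlap. It also passed in the count models on the recovered reads (adjusted p = 0.029 with edgeR and 0.00759 with DESeq2), so that the number of members that fell was 5 in both of those and in the fit without *renilla* siRNA replicate 3, and 4 (*tj*, *zfh1*, *cas* and *mirr*) with the trend removed.

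*slbo* was close to the detection limit and was not tested. Its 12, 10 and 4 reads in the *ovo* siRNA libraries and 5, 13 and 2 in the *renilla* siRNA libraries correspond to 5.82, 4.64 and 2.90 against 4.56, 12.4 and 8.76 normalized counts. With 26 reads against 20 in all, and with 3 reads worth 13.1 normalized counts in *renilla* siRNA replicate 3, a difference in this border cell gene was not detectable at this depth.

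**Figure D2:**
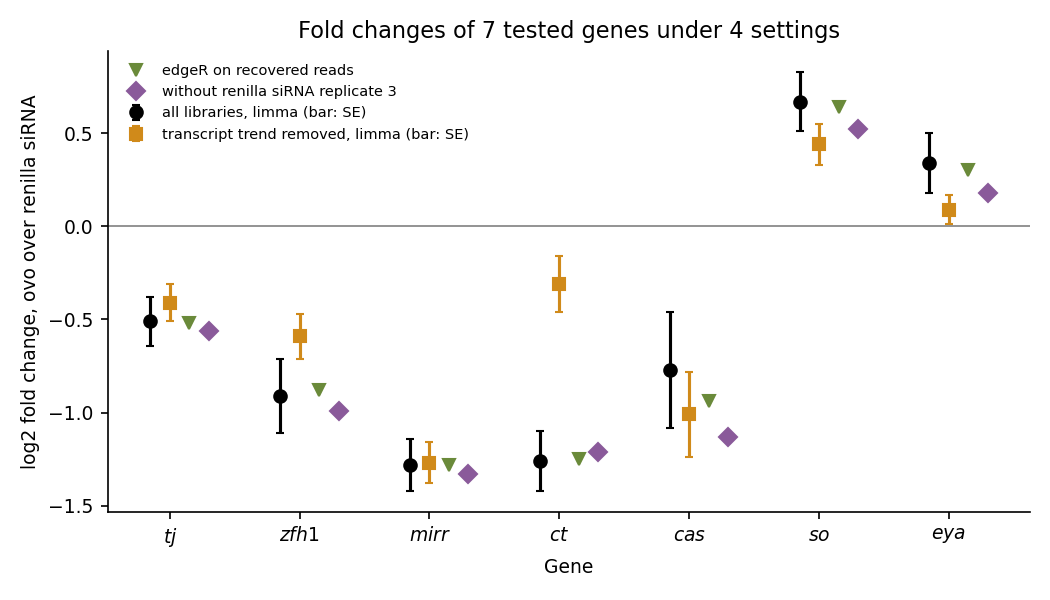
Log2 fold change of *ovo* over *renilla* siRNA for the 7 tested genes from all libraries (black, bar is the SE), with the transcript trend removed (orange, bar is the SE), with edgeR on recovered reads (green) and without *renilla* siRNA replicate 3 (purple). *mirr* stays near −1.3 in each, whereas *ct* moves from −1.26 to −0.31 when the trend is removed and *cas* from −0.77 to −1.01.

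Position and transcript structure were compared next, since the correction acted so unequally on the members. In the Release 6 genome *tj* lies at 2L:19464267-19467758 (plus strand), *eya* at 2L:6527447-6546976 (minus), *zfh1* at 3R:30765926-30789202 (plus), *cas* at 3R:5712975-5716805 (minus), *mirr* at 3L:12693639-12710249 (plus), *ct* at X:7608428-7678859 (plus), *so* at 2R:7419350-7434872 (plus) and *slbo* at 2R:24331522-24334307 (minus). None shares exonic bases with another gene on its own strand. All 7 tested members had longer transcripts than the median of the genes tested (2072.5 bases), from the 65.3rd percentile for *so* (2786 bases) to the 99.0th for *ct*. Over all genes tested the log2 fold change went down by 0.091 per doubling of length. *so* and *eya*, the tested members without lower levels with *ovo* siRNA, had the highest GC content of the 8 (53.9 and 53.8%), and *ct* the lowest. *cas* (53.5% GC, log2 fold change −0.77, not past the threshold) and *mirr* (52.7% GC, −1.28) lay close below them in GC and went the other way. What part length or GC plays in the difference of 1 gene was not tested.

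**Figure D3:**
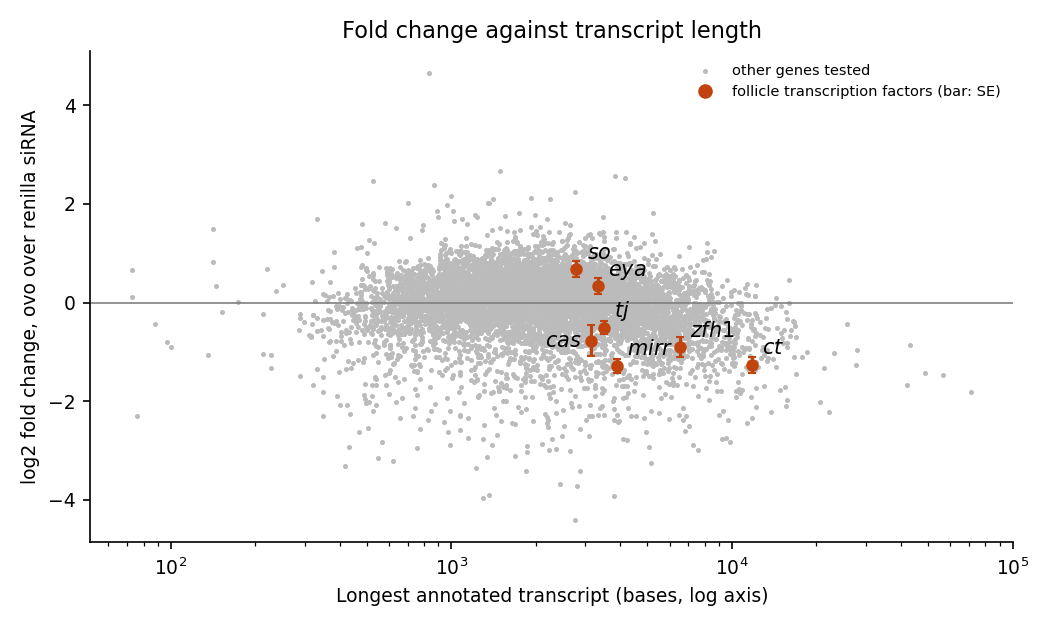
Log2 fold change of *ovo* over *renilla* siRNA against the length of the longest annotated transcript (log axis) for all genes tested (grey) and for the 7 tested transcription factors (red, bar is the SE). *ct* and *zfh1* lie among the longest transcripts, at 11755 and 6522 bases, while *mirr*, at 3892 bases, has the same fall as *ct* at a more usual length.

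Levels were then set against each other per kilobase of the longest transcript, because longer transcripts give more reads. In the *renilla* siRNA cells *tj* had the highest level, at 3660 ± 296 normalized counts per kb (SD, n = 3), at the 98.4th percentile of the 12756 genes with reads and a length. *zfh1* followed at 2390 ± 248 per kb and *mirr* at 564 ± 49.0 per kb. *so* and *eya* came next, at 234 ± 41.6 and 216 ± 38.9 per kb, with ranges that overlapped. *ct*, at 55.1 ± 5.39 per kb, overlapped *cas*, at 46.0 ± 17.6 per kb, both near the middle of all genes with reads, and *slbo* was last at 3.08 ± 1.41 per kb.

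With *ovo* siRNA the order changed in its middle. *tj* and *zfh1* stayed on top, at 2560 ± 93.6 and 1300 ± 336 normalized counts per kb (SD, n = 3). *so* came after them, at 370 ± 33.5 per kb, and then *eya*, at 270 ± 13.6 per kb. *mirr* was now at 233 ± 32.9 per kb, below every *so* library and overlapping *eya*. *cas* (25.4 ± 3.82 per kb) and *ct* (23.0 ± 4.15 per kb) overlapped as before, above *slbo* at 1.60 ± 0.53 per kb.

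Ratios between 2 genes of the same library do not depend on how that library was scaled, but they do depend on the trend in transcript properties, so both values are given. A total of 9 ratios were computed, for pairs chosen with the values known, and each was compared between the groups with a two-sided exact permutation test, whose smallest possible p with 3 against 3 libraries is 0.1. The log2 ratio of *mirr* to *so* was 1.52, 1.79 and 1.98 in *renilla* siRNA replicates 1, 2 and 3 and −0.11, −0.24 and −0.22 in *ovo* siRNA replicates 1, 2 and 3. *mirr* thus exceeded *so* in every control library and in none of the *ovo* siRNA libraries, a difference of −1.95 (exact p = 0.1, adjusted over the 9 ratios 0.15). With the trend removed it was −1.71, again with no overlap (exact p = 0.1, adjusted 0.15). *so* gained on *tj* by 1.18 (0.85 with the trend removed) and *eya* gained on *tj* by 0.85 (0.50), each with no overlap in either form (exact p = 0.1, adjusted 0.15). *mirr* lost against *tj* in both forms, with differences of −0.77 and −0.87 and no overlap (exact p = 0.1, adjusted 0.15 for both). The ratio of *ct* to *tj* differed by −0.76 with no overlap (exact p = 0.1, adjusted 0.15), but with the trend removed its direction turned, at 0.10 with overlapping groups (exact p = 0.8, adjusted 0.8). *so* also gained on *eya*, by 0.34, with the ratio between −0.21 and −0.07 in the control libraries and between 0.14 and 0.26 in the *ovo* siRNA libraries (exact p = 0.1, adjusted 0.15), and by 0.35 with the trend removed (exact p = 0.1, adjusted 0.15). The ratio of *mirr* to *ct* was 1.76 ± 0.27 (SD, n = 3) against 1.75 ± 0.10 (exact permutation p = 1) without the correction only. With the trend removed it went from 2.23 to 1.27, a difference of −0.96 with no overlap (exact p = 0.1, adjusted 0.15). The ratio of *zfh1* to *tj* overlapped between the groups (difference −0.39, exact p = 0.4, adjusted 0.514), and so did that of *cas* to *tj* (−0.27, exact p = 0.5, adjusted 0.562). Both also overlapped with the trend removed, at −0.19 (exact p = 0.4, adjusted 0.45) and −0.60 (exact p = 0.2, adjusted 0.257).

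**Figure D4:**
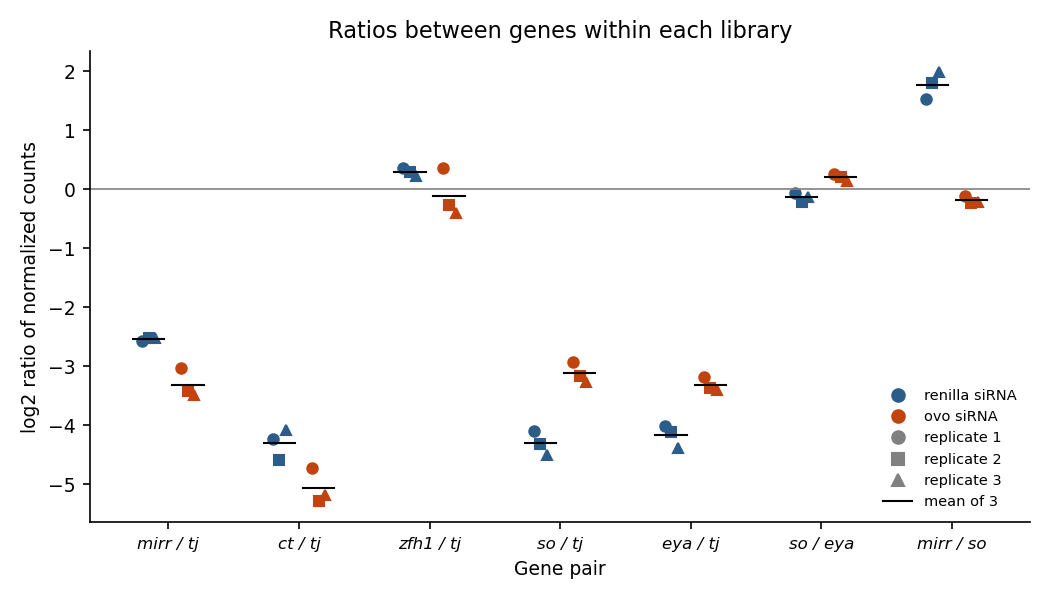
Log2 ratio of the normalized counts of 2 genes within each library, for 7 of the 9 pairs, with *renilla* siRNA libraries in blue, *ovo* siRNA libraries in red and the mean of 3 as a line. The ratio of *mirr* to *so* goes from 1.76 to −0.19, the largest shift, and only that of *zfh1* to *tj* overlaps between the groups among the pairs plotted. The values are without the transcript correction, with which the difference for *ct* to *tj* goes from −0.76 to 0.10.

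Each member was also matched to the genes of the table whose mean-centred log2 profile over the 6 libraries lay nearest, by the root mean square difference, among 6334 genes averaging 100 normalized counts or more. For *tj* these were *mtd* (0.032) and *Hip14* (0.042), and for *zfh1* they were *NaCP60E*, an ion channel gene (0.036), and *puf*, a ubiquitin protease gene (0.042). *cas* lay nearest to *fra*, the Netrin receptor gene (0.066), and *Cals* (0.080), *eya* to *CG5262* (0.024) and *Vps35*, a retromer subunit gene (0.025), and *so* to *CG7728* (0.035) and *Hs6st* (0.037). The RNA-binding protein genes *Imp* (0.050) and *Syp* (0.053) were nearest to *ct*. For *mirr* the nearest were *CkIIbeta* (0.076) and *wech* (0.078). Among the members, *ct* was the 61st nearest of these genes to *mirr* and *mirr* the 40th nearest to *ct* (0.164). *eya* was the 431st nearest to *so* and *so* the 1010th nearest to *eya* (0.176). The 2 nearest of 6334 genes are picked for closeness and the members are few, so the distances do not show whether members vary together. Such a measure over 6 libraries also holds what the libraries share in depth and transcript length.

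Of 25 other transcription factor genes of follicle cells, 23 were tested, of which 11 fell, 0 rose and 12 did not pass. Their median log2 fold change was −0.53, against 0.04 for all genes tested, of which 14.1% fell. The list was chosen with earlier results of these data known, so this comparison is a description only. *pnt*, an ETS factor gene of epidermal growth factor receptor signalling, fell from 264 ± 18.2 to 82.3 ± 17.3 normalized counts (SD, n = 3), a change of −1.69 ± 0.19 SE in log2 units (limma adjusted p = 0.00231). *chinmo*, a BTB zinc finger gene, fell as well (log2 fold change −1.30, limma adjusted p = 0.0031). *sd*, which encodes the DNA-binding partner of Yorkie (−0.79, adjusted p = 0.00657), and *ttk*, a BTB zinc finger gene of the Notch-dependent switch (−0.89, adjusted p = 0.00821), fell too. With the transcript trend removed 3 of the 23 fell and 0 rose, about the same share as the 13.0% of all genes that fell in that fit (*pnt*, −1.46, adjusted p = 0.000969; *ttk*, −0.51, adjusted p = 0.00249; *shn*, −0.48, adjusted p = 0.00283). Without 1 library the number that fell ran from 2 (without *ovo* siRNA replicate 2) over 6 (without *ovo* siRNA replicate 3) to 19 (without *renilla* siRNA replicate 3). The shares of all genes that fell in these fits were 4.84%, 6.91% and 24.4%.

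Paralogs and binding partners of the members were few. Of 10 listed, 5 were tested, of which 2 fell and 0 rose, with a median log2 fold change of −0.39. Over all genes tested 14.1% fell and 11.8% rose, with a median of 0.04. *Irbp18*, which encodes a bZIP partner of C/EBP-type proteins, fell from 595 ± 131 to 287 ± 34.0 normalized counts (SD, n = 3, −1.03 ± 0.19 SE, limma adjusted p = 0.00904). *zfh2*, a relative of *zfh1*, fell from 43.3 ± 13.4 to 10.8 ± 3.65 normalized counts (SD, n = 3, −1.91 ± 0.36 SE, limma adjusted p = 0.00974), and only *Irbp18* passed with the trend removed (−0.65, adjusted p = 0.00665). Without *renilla* siRNA replicate 3, 3 fell, in a fit where 24.4% of all genes fell. The other Iroquois genes *ara* and *caup*, the *so* relatives *Six4* and *Optix* and the Cut relative *onecut* did not reach the filter, and *caup* had no read, so that *mirr* and *so* were tested without any listed relative. Of 7 retinal determination genes that work with *eya* and *so* in the eye, only *dac* was tested, with 12.8 to 33.4 normalized counts and no call (−0.27 ± 0.39 SE, limma adjusted p = 0.642), and the next highest that could be named by the same rule, *ey*, stayed at 0 to 4.38.

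Of 6 genes known to be regulated by a member, all were tested, of which 1 fell and 0 rose (median −0.24), close to the shares over all genes tested (14.1% and 11.8%). The number called ran from 0 (without *ovo* siRNA replicate 2 or 3 or *renilla* siRNA replicate 2) to 3 (without *renilla* siRNA replicate 3). In the last of these fits 24.4% of all genes fell and 26.2% rose. *pip*, a sulfotransferase gene of the ventral follicle cells that Mirror represses, fell from 35.9 ± 5.08 to 14.0 ± 3.32 normalized counts (SD, n = 3, −1.32 ± 0.29 SE, limma adjusted p = 0.0166), as *mirr* did. *fng*, another gene under Mirror, was at −0.10 ± 0.13 SE (limma adjusted p = 0.589). *piwi*, which Traffic jam activates, was at 14666 ± 1450 with *ovo* siRNA against 11717 ± 2957 normalized counts (SD, n = 3) and did not pass (0.35 ± 0.22 SE, limma adjusted p = 0.262). It passed as a rise with the trend removed (0.54, adjusted p = 0.00981), where *tj* still fell.

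Marker genes of ovarian somatic cells were high in all 6 libraries. All 6 ovarian somatic markers were tested, and their sum ran from 33800 to 40900 normalized counts with *ovo* siRNA and from 38500 to 49600 with *renilla* siRNA. Of these *fs(1)Yb*, a soma-specific piRNA factor gene, rose (0.61 ± 0.17 SE, limma adjusted p = 0.0353), *tj* and *zfh1*, which are members themselves, fell, and *piwi*, *Fas3* and *shg* did not pass. The 3 calls became 0 without *ovo* siRNA replicate 2 or 3 or *renilla* siRNA replicate 2. They became 5 without *renilla* siRNA replicate 3 (1 higher, 4 lower). Over all libraries 14.1% of all genes were lower and 11.8% higher. Without *renilla* siRNA replicate 3 these shares were 24.4% and 26.2%. Polar cell genes gave 2 falls among 3 tested, *upd3* (−1.85 ± 0.24 SE, limma adjusted p = 0.0031) and *neur* (−0.50 ± 0.14 SE, limma adjusted p = 0.0396), with *upd1* without a read. Of 10 genes of the anterior ovarian soma 7 were tested, and 1 fell (*Wnt4*, −1.20 ± 0.19 SE, limma adjusted p = 0.00564), with a median of 0.22. With the trend removed *upd3* (−2.00, adjusted p = 0.000835) and *Wnt4* (−1.17, adjusted p = 0.00665) passed again, *dally* passed as a rise (0.92, adjusted p = 0.00805) and *neur* did not pass (−0.16, adjusted p = 0.289). Without *renilla* siRNA replicate 3, all 3 tested polar cell genes fell, and 6 of the 7 anterior genes were called. Of these 6 genes, 3 rose (*hh*, *dally* and *Wnt6*) and 3 fell (*bab1*, *bab2* and *Wnt4*). In the same fit 24.4% of all genes fell and 26.2% rose. Eggshell genes of late follicle cells were near 0. None of the 11 in the table was tested, 7 had no read, and the highest, *psd* and *Cp18*, stayed at or below 8.76 normalized counts in every library.

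**Figure D5:**
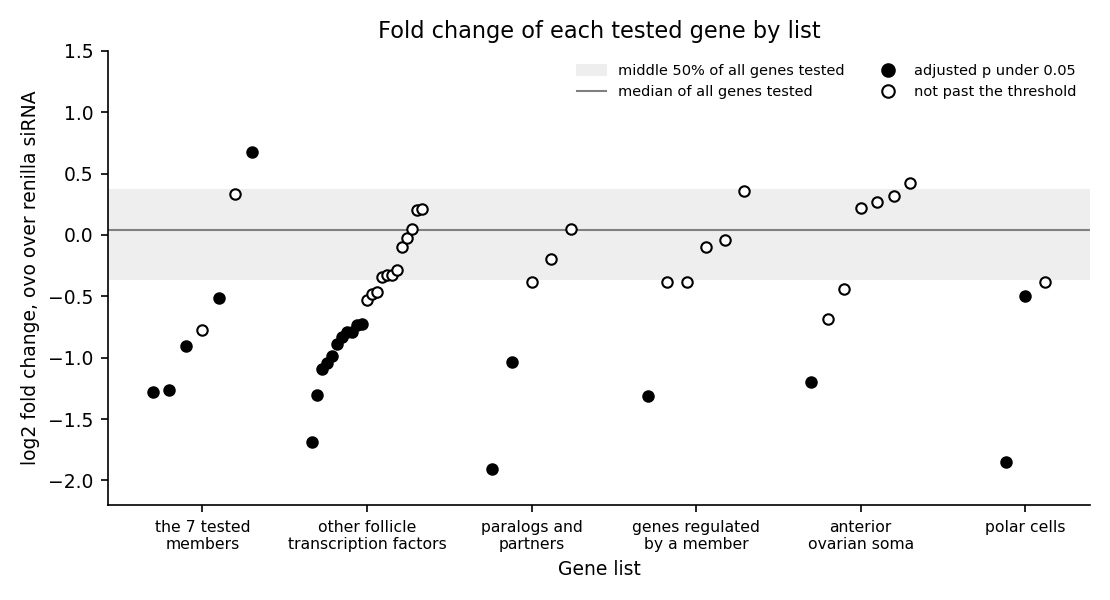
Log2 fold change of *ovo* over *renilla* siRNA of each tested gene in the follicle-related lists (filled, limma adjusted p under 0.05), with the median and the middle 50% of all genes tested in grey. Of the other follicle transcription factors 11 of 23 are filled, all of them below 0.

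As sums, markers of other cells were low next to those of ovarian somatic cells, whose sum was carried by *tj*, *zfh1* and *piwi*. The study does not count *piwi* among soma-specific piRNA pathway genes, so its level does not separate these cells from germ cells. *piwi* averaged 13191 normalized counts over all 6 libraries. *tj* and *zfh1*, which are members themselves, averaged 10852 and 12012, each above the germ cell sums below. Single marker genes of other cells were not all low. *elav* and *bgcn* averaged 1854 and 1233 normalized counts over all 6 libraries, above the somatic markers *shg* (1099) and *fs(1)Yb* (1047). For germ cells the sum of 7 markers was 2070 to 2300 normalized counts with *ovo* siRNA and 2020 to 2090 with *renilla* siRNA, 1 of 4 tested fell (*grk*, −0.69 ± 0.18 SE, limma adjusted p = 0.0298), and *nos*, *bam* and *osk* were below the filter. That list leaves out *vas*, *aub* and *ago3*, germline genes that the study describes as upregulated upon loss of *l(3)mbt*, so the germ cell sum does not cover them. Hemocyte markers summed to 537 to 818 against 320 to 632 normalized counts, with 0 of 2 tested called (*srp*, 0.29 ± 0.27 SE, and *Pxn*, 0.96 ± 0.38 SE) and *Hml*, *NimC1*, *eater* and *He* below the filter. Muscle markers summed to 255 to 300 against 223 to 290, with 1 of 4 tested higher (*Mlc2*, 1.19 ± 0.32 SE, limma adjusted p = 0.0308). Neuron markers summed to 1620 to 1840 against 1760 to 2440, with 1 of 2 tested lower (*para*, −2.10 ± 0.21 SE, limma adjusted p = 0.00194). Over all genes tested 14.1% fell and 11.8% rose. With the trend removed *bru1* (0.72, adjusted p = 0.0184), *Pxn* (0.78, adjusted p = 0.0404), *Mef2* (0.54, adjusted p = 0.0117) and *elav* (0.87, adjusted p = 0.0023) passed as well, all higher with *ovo* siRNA. Without *renilla* siRNA replicate 3, *orb* (−0.94, adjusted p = 0.0205) and *elav* (−0.39, adjusted p = 0.0108) fell and *bru1* rose (0.54, adjusted p = 0.00505), so that *elav* had opposite directions in these fits. Of all genes 13.0% fell and 16.8% rose with the trend removed, and 24.4% fell and 26.2% rose without that library. The *grk* call was lost in each of the 5 fits that left out another library. Their part in the levels of the 8 transcription factors was not tested.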

How the data were processed

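Per the labels, strand-specific libraries were made from polyadenylated RNA (500 ng of total RNA as input). Per the submitters' processing notes and the study's methods, the authors trimmed reads with cutadapt 1.18, aligned them to dm6 (BDGP6) with STAR 2.7.3a and counted them per gene by strand with featureCounts (Subread 1.5.3). The deposited table holds a signal, the gene counts divided by DESeq2 (1.30.1) size factors. The authors also deposited a DESeq2 comparison (mean level, log2 fold change, p values), which was not used. Whole reads were recovered from the deposited signal (100% of values within 0.01 of a whole number).

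Genes reaching 10 normalized counts in 3 or more libraries were fitted as log2(normalized count + 1) with limma 3.58.1 (R 4.3.3, mean-dependent prior, group as the only term, two-sided). Benjamini-Hochberg adjustment ran over all genes kept, and calls were made at 0.05. Fold changes are on the log2(value + 1) scale, which understates the change of low genes. Alternatives were another pseudocount (0.5 or 5), a filter of 50 or none, TMM, quantile normalization, a robust prior, the replicate block, edgeR 4.0.16 and DESeq2 1.42.0 on recovered reads, a trend in transcript GC, length and 3′ UTR length removed (splines with 5 degrees of freedom, with and without the block), thinned reads and leaving out each library. Removing the trend without *renilla* siRNA replicate 3, and from the ratios between genes, was added after seeing the data. Of 17807 symbols, 17019 matched an Ensembl annotation of the same build, 723 through an older symbol, and 65 found no match. Sequences were read from the RefSeq Release 6 genome, upstream of the outermost annotated start, and the siRNA from the study's supplement. The named genes were the 8 members, *ovo* and *l(3)mbt*, up to 4 genes of each list (smallest adjusted p first, or the 2 highest means where none passed), and the 2 nearest profiles of each member tested; others were chosen after their values were seen. The members and lists were chosen with earlier results of these data known. As reads were not tagged with molecular identifiers, intervals and floors hold for counting error alone. The fit was also run on simulated counts with planted changes. These counts had a common dispersion and no trend in transcript properties, so that run does not bear on the trend described above.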

Additional observations from a re-analysis of the deposited data

How the results depend on the processing

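The number of members past the threshold was 5 in the fit as reported and 3 under quantile normalization, and it ran from 2 to 6 when 1 library was left out. The number of all genes past it was 2045, ran from 496 (without *ovo* siRNA replicate 2) to 3905 (without *renilla* siRNA replicate 3) when 1 library was left out, and was 3390 with the transcript trend removed and *renilla* siRNA replicate 3 left out. The cause was not tested. No member changed direction in any of the 20 alternatives. Same-numbered libraries deviated together in 2 of 3 pairs (correlations of 0.442, −0.143 and 0.464). Differently numbered libraries could correlate about as much (0.434 for *ovo* siRNA replicate 1 with *renilla* siRNA replicate 2), so the numbers were not taken to pair the samples. With the replicate number as a block, 2978 genes and 6 members passed, *cas* being the one added (adjusted p = 0.0189). Depth limits *slbo*, and *cas* in *renilla* siRNA replicate 3, where 1 read is worth 4.38 normalized counts.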
